A study of Mus musculus with 28 samples.

Results

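The 8 mouse genes described here were chosen by their RNA level in these same libraries, which was far lower in rd1 than in wild-type (WT) rods: Slc15a2, Col17a1, Duxbl1, Eps8l1, Phf24, Myof, Tmsb15b1 and Tmem92. They are 8 of the 45594 genes in the deposited gene table, and all 8 were among the 18608 genes that passed the filter on low counts. Duxbl1, at most at 0.617 CPM in rd1, passed through its WT levels alone. The difference between rd1 and WT chose the genes, so it is given below as a description without a test. The choice was made by name and has no numerical threshold.

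Rods are the photoreceptors of dim-light vision. The rd1 allele disrupts Pde6b, the beta subunit of the rod phosphodiesterase that breaks down cyclic GMP, and rods that carry it in both copies die in the first postnatal weeks. None of the 8 genes belongs to phototransduction, and none lies on the chromosome that carries Pde6b.

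Both genotypes carried TgNrlp-GFP, a transgene in which the Nrl promoter, active in rods and rod precursors, drives a green fluorescent protein. The rd1 mice, Pde6b rd1/rd1, came from a cross between mutant and transgenic animals, and the WT mice were the transgenic line. GFP-positive retinal cells were sorted at postnatal days 2, 4, 6, 8 and 10 (P2 to P10), and mRNA was sequenced in 13 rd1 libraries (2, 2, 3, 4 and 2 by age) and 15 WT libraries (2, 3, 4, 2 and 4). The labels name no strain and no backcross, so the Pde6b genotype and any other inherited difference between the lines cannot be told apart. They do not say how many animals a replicate holds, so p-values measure only the spread between these samples, which may be technical.

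Library totals ran from 11.9 to 15 M counts in WT, from 11.1 to 13.8 M in rd1 at P8, and from 15.98 to 21.36 M in the other 9 rd1 libraries, so that both genotypes had like depth at P8 alone. The same 9 rd1 libraries were high in Fos, an early response gene that tissue dissociation can induce, at 145 to 736 CPM, as were 3 WT libraries at 270 to 515 CPM. The other 12 WT libraries had 5.02 to 54.3 CPM and the P8 rd1 libraries 19.5 to 47.3 CPM. P6 rd1 replicates 1 and 3 stood far closer to each other than other replicate pairs did (a chi-square of their counts, over its degrees of freedom, of 2.71, where 28 other pairs had 10.4 to 120) and were averaged into 1 sample in the tests and in each mean ± SD, which left 27 samples. Ranges, medians and summed counts are over the 28 libraries. The rod factors Nrl and Nr2e3 were at like levels in both genotypes, with medians of 2258 and 2367 CPM (a gene's counts scaled to a common library total) in WT and 2330 and 2646 CPM in rd1.

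In 6 of the 8 genes, every one of the 13 rd1 libraries lay below every one of the 15 WT libraries, whatever the age. Of all genes tested, 0.478% did so. Myof and Tmem92 were the exceptions. Within each age the genotypes were apart at all 5 ages for 7 genes, Myof included, and at 4 ages for Tmem92, against 0.924% of all genes tested that were apart at each age. At P8, where depth was alike and Fos was low in both genotypes, all 8 were apart, against 14.4% of all genes tested. The median of the 8 log2 fold changes, averaged over the ages, was -3.97, against -0.012 over all genes tested. These counts restate the choice of the genes.

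The description "nearly lost" held to different degrees. The median rd1 level was 0% of the WT median for Duxbl1, 1.87% for Col17a1, 4.58% for Eps8l1, 5.86% for Slc15a2, 6.45% for Tmem92, 7.95% for Phf24, 12.3% for Tmsb15b1 and 17.4% for Myof. It did not hold for Tmem92 at P2, P4 and P10, nor for Myof at P10. In these bulk samples, fewer cells that express a gene and less RNA of that gene per cell cannot be told apart.

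**Figure D1:**
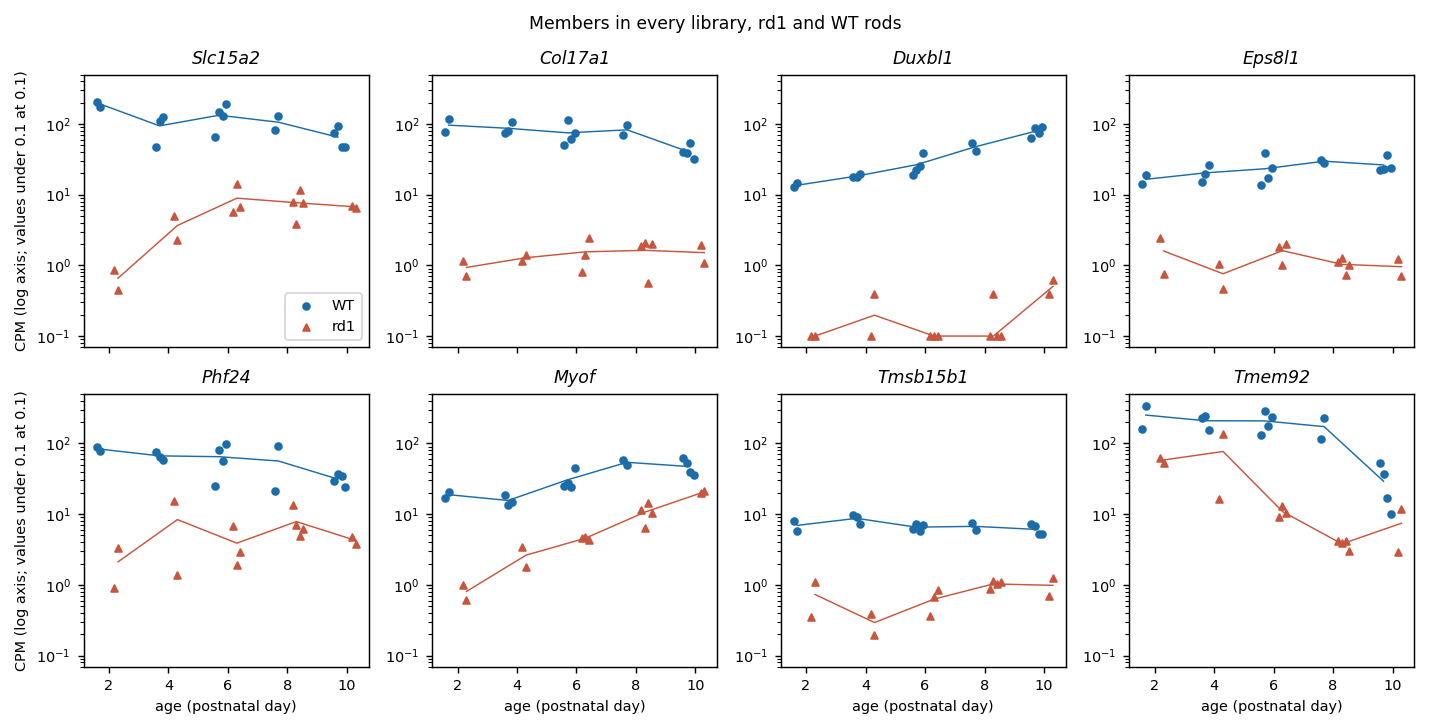
CPM of the 8 genes (log axis) against postnatal age, 1 point per library, with lines through the means (WT circles, rd1 triangles, values under 0.1 CPM drawn at 0.1). WT and rd1 points stay apart throughout for 6 genes, the Myof points approach each other with age, and those of Tmem92 overlap at P10.

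Slc15a2 encodes the proton-coupled transporter PEPT2, which carries dipeptides and tripeptides into cells. It lies on the minus strand of chromosome 16, from 36750178 to 36784962 (GRCm38). In WT it had a lowest, median and highest value of 46.7, 110 and 207 CPM, and in rd1 of 0.446, 6.45 and 14.4 CPM. At P2 the WT libraries stood at 207 and 176 CPM and the rd1 libraries at 0.866 and 0.446 CPM, the widest gap of any age for this gene. At P10 WT stood at 73.5, 92.9, 47.0 and 46.7 CPM and rd1 at 6.99 and 6.45 CPM. The log2 fold change of rd1 over WT was -8.16 ± 0.70 (SE) at P2, -3.64 ± 0.51 at P6 and -3.20 ± 0.50 at P10. The gap narrowed from both sides, as WT levels were lower and rd1 levels higher at P10 than at P2.

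Most Slc15a2 reads were assigned to the full-length coding transcript Slc15a2-001, with 74% of the gene's counts in WT and 86.4% in rd1. The 7 annotated transcripts with a retained intron held 18.4% in WT (13.6 to 23.1% over libraries) and 5.49% in rd1. In single rd1 libraries that share ran from 1.09 to 63.2%, since the gene had few counts there.

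Col17a1 encodes collagen XVII, a transmembrane collagen of hemidesmosomes, the structures that anchor epithelial cells to their basement membrane. It lies on the minus strand of chromosome 19, from 47646344 to 47692094. Levels had a lowest, median and highest value of 32.3, 75.1 and 116 CPM in WT, and of 0.569, 1.401 and 2.45 CPM in rd1. The lowest WT library was thus 13.2 times the highest rd1 library. The rd1 means stayed between 0.935 ± 0.334 CPM (SD, n = 2) at P2 and 1.63 ± 0.713 CPM (SD, n = 4) at P8. The log2 fold change was -6.70 ± 0.48 at P2, -5.68 ± 0.34 at P8 and -4.69 ± 0.42 at P10, and the smaller gap at P10 went with a lower WT level there, at 41.4 ± 8.69 CPM (SD, n = 4).

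Krt5 and Krt14, keratins of the basal epithelial cells in which collagen XVII is best known, were at or near 0 in both genotypes (means of at most 0.0143 CPM). Krt15 (means of 1.92 CPM in WT and 2.66 CPM in rd1) and Krt18 (9.65 and 9.18 CPM) were present in both. The hemidesmosome genes with the highest levels in these samples gave no such gap. In WT and rd1 respectively, Dst had means of 104 and 95.8 CPM, Itga6 of 33.5 and 38.7 CPM and Plec of 32.2 and 40.5 CPM, none past the threshold of an adjusted p of 0.05. Of 11 genes tested in that list, 1 passed, Lama3 (-1.68 ± 0.39), with means of 1.52 and 0.629 CPM. Col7a1, at 7.69 and 4.58 CPM, did not pass (-0.68 ± 0.25).

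Myof encodes myoferlin, a member of the ferlin family of membrane fusion and repair proteins. It lies on chromosome 19 too, on the minus strand from 37899036 to 38043577. Levels had a lowest, median and highest value of 13.3, 27.6 and 62.3 CPM in WT, and of 0.606, 4.79 and 21.6 CPM in rd1. Unlike the other members, Myof was higher at each later age in rd1, with means of 0.808, 2.63, 4.63, 10.7 and 20.7 CPM from P2 to P10. The P10 rd1 libraries, at 19.8 and 21.6 CPM, overlapped with the WT libraries of P2 (17.2 and 20.6 CPM) and lay above those of P4 (18.6, 13.3 and 15.04 CPM). WT rods were at 62.3, 52.4, 38.9 and 36.4 CPM by P10, so the genotypes still did not overlap at that age. The log2 fold change was -4.56 ± 0.43 at P2, -2.43 ± 0.28 at P8 and -1.12 ± 0.30 at P10.

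Eps8l1 encodes a relative of EPS8, an adapter that links growth factor receptors to actin remodelling. Its position is the plus strand of chromosome 7, from 4460674 to 4480487. Levels had a lowest, median and highest value of 13.7, 23.1 and 38.4 CPM in WT, and of 0.466, 1.06 and 2.45 CPM in rd1. The log2 fold change was -3.36 ± 0.52 at P2 and lay between -3.97 and -4.91 at the later ages. The 2 P2 rd1 libraries stood at 2.45 and 0.748 CPM, against 14.2 and 18.8 CPM in WT.

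The gene has 14 annotated transcripts, and 3 of them begin at its upstream end. Those 3 held 35.9% of the Eps8l1 counts in WT (2074 of 5783, 21.9 to 50.7% over libraries) and 6.95% in rd1 (16.3 of 234, 0 to 39.5% over libraries). Their summed level was 10.5 ± 3.44 CPM (SD, n = 15) in WT and 0.0648 ± 0.0942 CPM (SD, n = 12) in rd1, a ratio of 162, with less than 1 rounded count in 7 of the rd1 libraries. The other transcripts summed to 18.7 ± 6.76 CPM in WT, and to 0.940 ± 0.396 CPM in rd1, a ratio of 19.9. Reads from both groups of transcripts were thus lower in rd1, those of the upstream start by the larger ratio. The split between overlapping transcripts is an estimate, and in rd1 it rests on few counts.

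The 227 bases just before the upstream Eps8l1 start, chr7:4460447-4460673 on the plus strand, are shown because the transcripts that begin there had the larger ratio. The sequence is the RefSeq promoter table's, for GRCm38.p6, and holds neither of the motifs searched below.
Eps8l1 upstream start: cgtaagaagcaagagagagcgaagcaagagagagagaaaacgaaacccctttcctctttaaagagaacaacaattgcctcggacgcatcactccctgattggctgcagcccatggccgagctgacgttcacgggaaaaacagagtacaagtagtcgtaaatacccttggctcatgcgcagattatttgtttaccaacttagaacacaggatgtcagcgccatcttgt

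**Figure D2:**
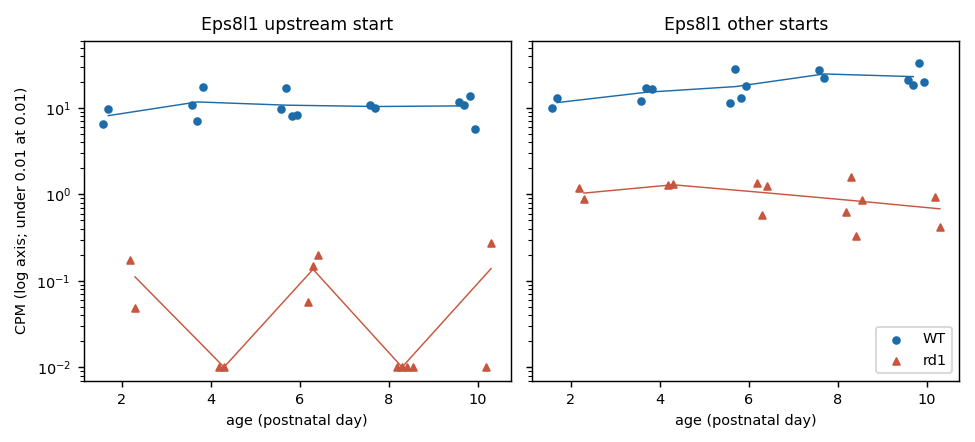
Summed CPM (log axis, values under 0.01 drawn at 0.01) of the Eps8l1 transcripts that begin at the upstream end (left) and of all others (right) against postnatal age, 1 point per library, with lines through the means. In rd1 the upstream transcripts reach at most 0.277 CPM and the others at most 1.58 CPM.

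Tmsb15b1 encodes a beta thymosin, a small protein that binds actin monomers. Its position is the minus strand of chromosome X, from 136974022 to 136976874. Levels had a lowest, median and highest value of 5.18, 6.96 and 9.66 CPM in WT, and of 0.197, 0.857 and 1.27 CPM in rd1. The log2 fold change was widest at P4, at -4.89 ± 0.46, and was -2.55 ± 0.38 at P10. The gene is X-linked. Xist, the RNA of the inactive X chromosome, ran from 0.842 to 4620 CPM over the WT libraries and from 3.43 to 4339 CPM over the rd1 libraries. The part of sex in the Tmsb15b1 level was not tested.

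Tmsb15b1 has near copies beside it, and reads of the shared parts can be split between them. Only 34.2% of the 31-base words of its transcript occur in no other gene. Its coding sequence of 135 bases and that of Tmsb15b2 differ at 4 positions, counted from 1 at the first base of the start codon: G36A, T46G, T96G and T123C, the Tmsb15b1 base first. Both are shown with these positions in capitals, because the count of Tmsb15b1 rests on few differences from its copy.
Tmsb15b1: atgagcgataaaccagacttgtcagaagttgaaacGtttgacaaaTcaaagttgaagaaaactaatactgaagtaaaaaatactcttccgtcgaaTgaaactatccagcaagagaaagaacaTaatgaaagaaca
Tmsb15b2: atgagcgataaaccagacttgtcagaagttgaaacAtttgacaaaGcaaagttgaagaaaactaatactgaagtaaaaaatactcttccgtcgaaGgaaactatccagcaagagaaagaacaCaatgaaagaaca

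Tmsb15b2 did not share the gap. It had a median of 8.17 CPM in WT and 7.90 CPM in rd1, with a log2 fold change of -0.15 ± 0.12 (edgeR quasi-likelihood test, adjusted p = 0.376). Tmsb15l, whose transcripts overlap Tmsb15b1, was lower in rd1, at a median of 2.19 against 4.84 CPM and a log2 fold change of -1.09 ± 0.16 (edgeR, adjusted p = 3.25e-05). The sum of the 3 genes, which does not depend on how reads were split among them, was 12.3 to 25.4 CPM in WT and 6.69 to 12.8 CPM in rd1. It did not overlap between the genotypes at any age.

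Of the 8 members, 6 have a start in the RefSeq promoter table; Duxbl1 and Tmem92 have none. The 250 bases before each start were searched on both strands for TAATCC, a core of the sites bound by CRX, and TGCTGA, a core of the sites bound by NRL. These letters occur in 6.25% and 16.1% of the 32851 promoters in the table. The CRX core was found once, in Tmsb15b1, and the NRL core in none of the 6. The promoter of Tmsb15b1 (chrX:136976875-136977124, minus strand, GRCm38.p6) is shown with the match, GGATTA as read here, in capitals; its first base lies 51 bases before the start.
Tmsb15b1 promoter: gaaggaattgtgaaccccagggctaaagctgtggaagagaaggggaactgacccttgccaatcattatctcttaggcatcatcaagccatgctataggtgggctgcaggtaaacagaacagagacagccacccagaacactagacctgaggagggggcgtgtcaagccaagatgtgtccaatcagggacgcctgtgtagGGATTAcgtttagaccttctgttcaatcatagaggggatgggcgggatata

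Duxbl1 encodes a protein with a double homeobox, the DNA-binding fold of a family of factors known from the early embryo. It lies on the plus strand of chromosome 14, from 25978577 to 25990088. In WT it was higher at each later age, from 12.7 and 14.5 CPM at P2 to 64.0, 86.9, 73.8 and 90.3 CPM at P10. In rd1, 8 of the 13 libraries were listed at 0 and the highest stood at 0.617 CPM. Against a floor of 3 counts per library, which covers counting error only, Duxbl1 was at least 87.7-fold lower in rd1 at P2 and at least 158-fold lower at P6. At P10 the rd1 libraries stood at 0.389 and 0.617 CPM.

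Those values depend on how reads were assigned among copies. The coding sequences of Duxbl1, Duxbl2 and Duxbl3, 1050 bases each, were identical in the GENCODE annotation, and only 1.39% of the 31-base words of Duxbl1-001 occur in no other gene. Duxbl2 had a median of 12.95 CPM in WT and 18.1 CPM in rd1, with a log2 fold change of -0.03 ± 0.37 (edgeR, adjusted p = 0.971). Duxbl3 had 9.43 and 7.58 CPM, with -0.35 ± 0.29 (edgeR, adjusted p = 0.42). Averaged over the ages, neither copy passed the threshold. By age, the Duxbl2 log2 fold change ran from 0.62 at P2 to -1.62 at P10, where WT stood at 26.3 to 120 CPM and rd1 at 18.1 and 18.6 CPM without overlap, and that of Duxbl3 from 0.19 to -1.03. The sum of all 3 genes was lower in rd1 at every age. That sum was 19.9 and 24.9 CPM in WT and 16.3 and 7.87 CPM in rd1 at P2. At P8 it was 141 and 68.4 CPM in WT and 39.2, 43.3, 45.7 and 49.6 CPM in rd1, and at P10 96.9, 129, 141 and 249.1 CPM in WT and 28.3 and 28.1 CPM in rd1. The sums did not overlap at any age, but the gap was of a far smaller ratio than that of Duxbl1 alone.

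**Figure D3:**
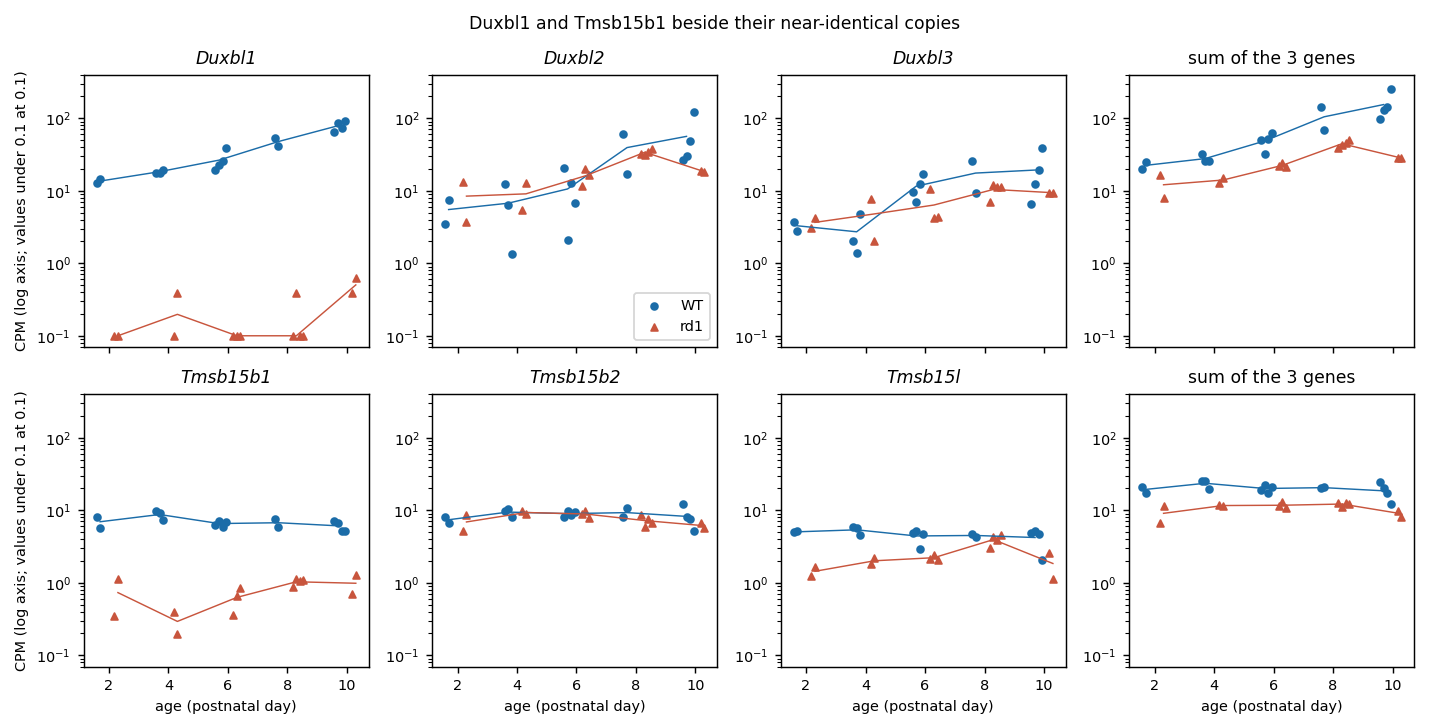
CPM (log axis, values under 0.1 drawn at 0.1) of Duxbl1, Duxbl2, Duxbl3 and their sum (top) and of Tmsb15b1, Tmsb15b2, Tmsb15l and their sum (bottom) against postnatal age, 1 point per library, with lines through the means. The rd1 points of Duxbl1 lie at or below 0.617 CPM, while those of Duxbl2 lie from 3.65 to 38.2 CPM.

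Phf24, also known as GINIP, encodes a protein that binds inhibitory G protein alpha subunits and takes part in GABA-B receptor signalling. The gene is on the plus strand of chromosome 4, from 42916660 to 42944752. Levels had a lowest, median and highest value of 21.3, 59.1 and 97.0 CPM in WT, and of 0.903, 4.70 and 15.4 CPM in rd1. The spread within groups was wide. P8 WT stood at 21.3 and 91.8 CPM, P6 WT at 25.3, 80.5, 57.3 and 97.0 CPM, and P4 rd1 at 15.4 and 1.38 CPM. The log2 fold change averaged over the ages was -3.62 ± 0.34, and -4.14 without P4 rd1 replicate 1, the rd1 library with the highest Phf24 level. The 3 transcripts that carried most reads held 94.3% of the gene's counts in WT and 94.8% in rd1.

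Tmem92 encodes a transmembrane protein. The gene is on the minus strand of chromosome 11, from 94777217 to 94782703. Levels had a lowest, median and highest value of 10.2, 160 and 344 CPM in WT, and of 2.96, 10.4 and 138 CPM in rd1. At P2 the rd1 libraries stood at 63.0 and 53.8 CPM, against 160 and 344 CPM in WT. At P4 they stood at 16.6 and 138 CPM, against 230, 243 and 156 CPM. At P8 all 4 rd1 libraries were between 3.01 and 4.16 CPM, against 117 and 229 CPM in WT, the widest gap, with a log2 fold change of -5.55 ± 0.65. By P10 WT itself was low, at 53.1, 36.8, 16.7 and 10.2 CPM, and overlapped with rd1 at 2.96 and 12.0 CPM. The average log2 fold change was -3.02 ± 0.32, and -3.45 without P4 rd1 replicate 2, the library at 138 CPM.

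Age courses in WT rods were tested over the 5 ages (edgeR, 4 degrees of freedom). The WT libraries also entered the contrast that chose the genes, so the tests are not independent of that choice in level, though the choice did not use the course. Xist, and Ddx3y of the Y chromosome, varied between the WT ages. The P2 libraries had Xist (2602 and 2486 CPM) and Ddx3y (83.2 and 37.3 CPM). At P8 Ddx3y was at 0.162 and 0.419 CPM. At P10 Xist was at 3.77, 0.842 and 2.75 CPM in replicates 2 to 4, and at 1610 CPM in replicate 5. Sex was not in the model, and its part in the courses was not tested. Of the 8 genes, 5 passed, against 36.4% of all genes tested. Duxbl1 (log2 fold change of P10 over P2 of 2.65 ± 0.43, adjusted p = 2.01e-05 over the ages) and Myof (1.43 ± 0.31, adjusted p = 2.91e-05) rose. Tmem92 fell by 3.05 on the log2 scale (SE 0.58, adjusted p = 0.00153), Slc15a2 by 1.46 (SE 0.40, adjusted p = 0.0426) and Col17a1 by 1.11 (SE 0.29, adjusted p = 0.0187).

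The members thus had no common course in WT. Eps8l1 (0.79 ± 0.40, edgeR adjusted p = 0.29), Phf24 (-1.30 ± 0.59, adjusted p = 0.37) and Tmsb15b1 (-0.07 ± 0.32, adjusted p = 0.737) did not pass. The calls of Slc15a2 and Col17a1 were lost when single libraries were left out, at an adjusted p of up to 0.117 (without P2 WT replicate 1) and 0.0682 (without P10 WT replicate 3). In rd1, where the choice of genes used the levels, the P10 over P2 estimates were 4.87 for Myof, 3.50 for Slc15a2 and -2.82 for Tmem92. That of Duxbl1, 6.04 ± 1.59, rests on rd1 libraries at or near 0 counts. The estimates lay between -0.55 and 1.12 for Col17a1, Eps8l1, Phf24 and Tmsb15b1.

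Over the 27 samples, Pearson's r between pairs of members on log2 CPM ran from 0.18 to 0.97, with a median of 0.84 over 28 pairs. These values share the split between the genotypes that chose the genes. Within the 15 WT samples r ran from -0.80 (Duxbl1 with Tmem92) to 0.86 (Duxbl1 with Myof), with a median of -0.11, and 15 of the 28 pairs were below 0. Within WT alone the signs were thus mixed. All these points share the age course as well.

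Genes outside the set were ranked by how like their level over the 27 samples was to the mean of the members' standardised levels. Predicted genes and pseudogenes were left out, and 18 of them ranked before the 8th gene named here. The most alike of the rest were Capza1 (r = 0.986), an actin-capping protein gene, Rpl21 (0.971), Rab6b (0.961), Ahcy (0.960), Rpl26 (0.950), Snord53 (0.942), Fam205c (0.940) and Peli2 (0.937). All 8 were lower in rd1, by log2 fold changes down to -8.18 (Fam205c). The Capza1 mean was 167 CPM in WT against 71.8 CPM in rd1, and that of Ahcy 37.2 against 3.71 CPM. Ribosomal protein genes such as Rpl21 and Rpl26 have many processed copies in the genome, so their counts are uncertain. Likeness was measured on the same split between the genotypes. The 8 genes lie on 8 different chromosomes, but Fam205c is the tested gene next to the member Phf24. The positions of the 18 predicted genes and pseudogenes left out were not compared.

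The genes on either side of each member were compared, since a tract of DNA inherited from another strain would cover neighbours as well. Such a tract need not change the RNA levels of the genes it covers, so inherited tracts as such were not tested. Within 1 Mb of the 8 members, 275 other genes were tested, and 96 differed between rd1 and WT on the average over the ages (edgeR, adjusted p under 0.05), 38 higher and 58 lower. That is 34.9%, against 23.5% of all genes tested (12.9% higher and 10.6% lower). A log2 fold change of -2 or lower was found for 24 of the 275 (8.73%), against 1.17% of all genes tested, and 20 of these 24 lay next to Phf24. Around the other 7 members, 63 of 223 genes (28.3%) passed and 4 (1.79%) were at -2 or lower. Of these 4, the pseudogene Gm11518 near Tmem92 (average of -6.04) did not pass and had no usable SE. Its log2 fold change ran from -10.58 at P6 to 9.9 at P8.

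Phf24 stood at the edge of a stretch in which every tested gene was lower in rd1. Toward lower coordinates, all 21 tested genes within 1 Mb were lower, and the 19 nearest formed an unbroken run from 41966058 to 42874234 on chromosome 4, with log2 fold changes from -3.75 to -10.22. The next gene, Gm20878, was at -0.45 ± 0.16 (edgeR, adjusted p = 0.0456), and Gm13307, which overlaps it, was again at -5.45 ± 0.55 (adjusted p = 8.62e-07). Between 1 and 1.5 Mb from Phf24, 2 of 20 tested genes were at -2 or lower. Toward higher coordinates none of 31 tested genes was lower and 12 were higher. The neighbour on that side, Dnajb5, 5.06 kb away, was at 0.10 ± 0.10 (adjusted p = 0.538).

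Within that run, the gene next to Phf24 is Fam205c, 42.4 kb away, all of whose 31-base words are its own. It was 4.54 to 20.8 CPM in WT and listed at 0 in 9 of 13 rd1 libraries, with a log2 fold change of -8.18 ± 0.63 (edgeR, adjusted p = 1.18e-08). The run also holds the chemokine genes Ccl19 (-5.56 ± 0.64) and Ccl21a (-4.95 ± 0.69), both under 2 CPM in every library, and the near copies Fam205a1 (-7.05 ± 0.60) and Fam205a4 (-6.09 ± 0.54). Of the 19 genes, 14 are predicted genes or pseudogenes, and only 18.8% of the words of Fam205a1 and 19.4% of those of Ccl21a occur in no other gene. Counts of such genes are uncertain singly.

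The summed level of the 19 genes was 178 to 784 CPM in WT. In 12 of 13 rd1 libraries it was 5.94 to 13.3 CPM, and in P4 rd1 replicate 1 it was 151 CPM. That library also had the highest Phf24 level in rd1, at 15.4 CPM, and the highest Fam205c level in rd1, at 3.84 CPM, while no other rd1 library exceeded 0.0495 CPM for Fam205c. Among WT libraries of P8, replicate 1 was low in both Phf24 (21.3 against 91.8 CPM) and the sum (230 against 349 CPM), and of P6, replicate 1 was lowest in both (25.3 and 221 CPM). Other libraries did not follow this order. P8 rd1 replicate 1, next highest in Phf24 among rd1 libraries at 13.4 CPM, had a sum of 9.46 CPM. P6 WT replicate 4, highest in Phf24 in WT at 97.0 CPM, had a sum of 427 CPM against 675 CPM in replicate 2. P6 WT replicate 1 also stood apart in genes detected, at 27793 where no other library exceeded 24862, and had Fos at 270 CPM.

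Tmem92 had a smaller group of lower genes beside it. Gm11546, 14.4 kb away, was at -3.34 ± 0.41 (edgeR, adjusted p = 3.06e-06) and AA623943, 29.9 kb away, at -3.47 ± 0.33 (adjusted p = 5.82e-08). Both share short stretches with Tmem92, of which 96.2% of the 31-base words are its own, and only 48.5% of the words of Gm11546 and 62.7% of those of AA623943 are their own. In P4 rd1 replicate 2, where Tmem92 stood at 138 CPM, AA623943 was at 27.4 CPM and Gm11546 at 53.6 CPM, the highest of any rd1 library for all 3. On the other side of Tmem92, Cdc34b was at -0.19 ± 0.28 (adjusted p = 0.662). Of 44 genes within 1 Mb, 10 were lower and 8 higher. Lower ones included Mrpl27 (-1.09 ± 0.10), Nme1 (-1.44 ± 0.17) and Itga3 (-1.01 ± 0.13), and higher ones Mycbpap (1.39 ± 0.22) and Col1a1 (2.58 ± 0.54). Col1a1 had means of only 0.334 CPM in WT and 1.97 CPM in rd1, and was at -0.46 at P10.

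No such run lay beside the remaining members. For Slc15a2, Eaf2 was at -0.48 ± 0.16 (edgeR, adjusted p = 0.0333), Ildr1 at -0.59 ± 0.28 (adjusted p = 0.132), and 3 of 24 genes within 1 Mb passed. For Col17a1, Slk, 1.098 kb away, was at -0.34 ± 0.10 (edgeR, adjusted p = 0.0129), Sfr1 at -0.21 ± 0.09 (adjusted p = 0.101), and 4 of 22 passed. For Myof, Cyp26a1 was at 0.32 ± 0.32 (edgeR, adjusted p = 0.503), Cep55 at 0.12 ± 0.32 (adjusted p = 0.828), and 3 of 22 passed, all lower. Among them were Fra10ac1 (-0.56 ± 0.08) and the cone phosphodiesterase gene Pde6c (-0.93 ± 0.18), which ran from 0.74 at P2 to -3.14 at P10. On the average over the ages, no neighbour of these 3 members was at -2 or lower.

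Next to Eps8l1, Ppp1r12c, 1.03 kb away, was at -0.01 ± 0.12 (edgeR, adjusted p = 0.976) and Rdh13 at -0.03 ± 0.06 (adjusted p = 0.771), while 22 of 65 genes within 1 Mb passed, 14 of them higher. Around Duxbl1, 5 of 23 passed. Tmem254a and Tmem254b gave the same values (-0.74 ± 0.22, edgeR adjusted p = 0.0157), with the same means of 5.34 CPM in WT and 2.91 CPM in rd1. They count as 2 of the 5, though they may hold 1 set of reads split between them. Gm2260, with a mean under 0.2 CPM, did not pass (0.92 ± 0.92). Around Tmsb15b1, 8 of 23 passed, 7 lower and 1 higher, where 10.6% of all genes tested were lower. Within 0.5 Mb of it, 6 of 12 tested genes were lower and 1 was higher. Slc25a53, 4.24 kb away, was higher (0.52 ± 0.09, edgeR adjusted p = 0.000189), and Glra4 (-2.08 ± 0.31) was lower at under 1 CPM.

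**Figure D4:**
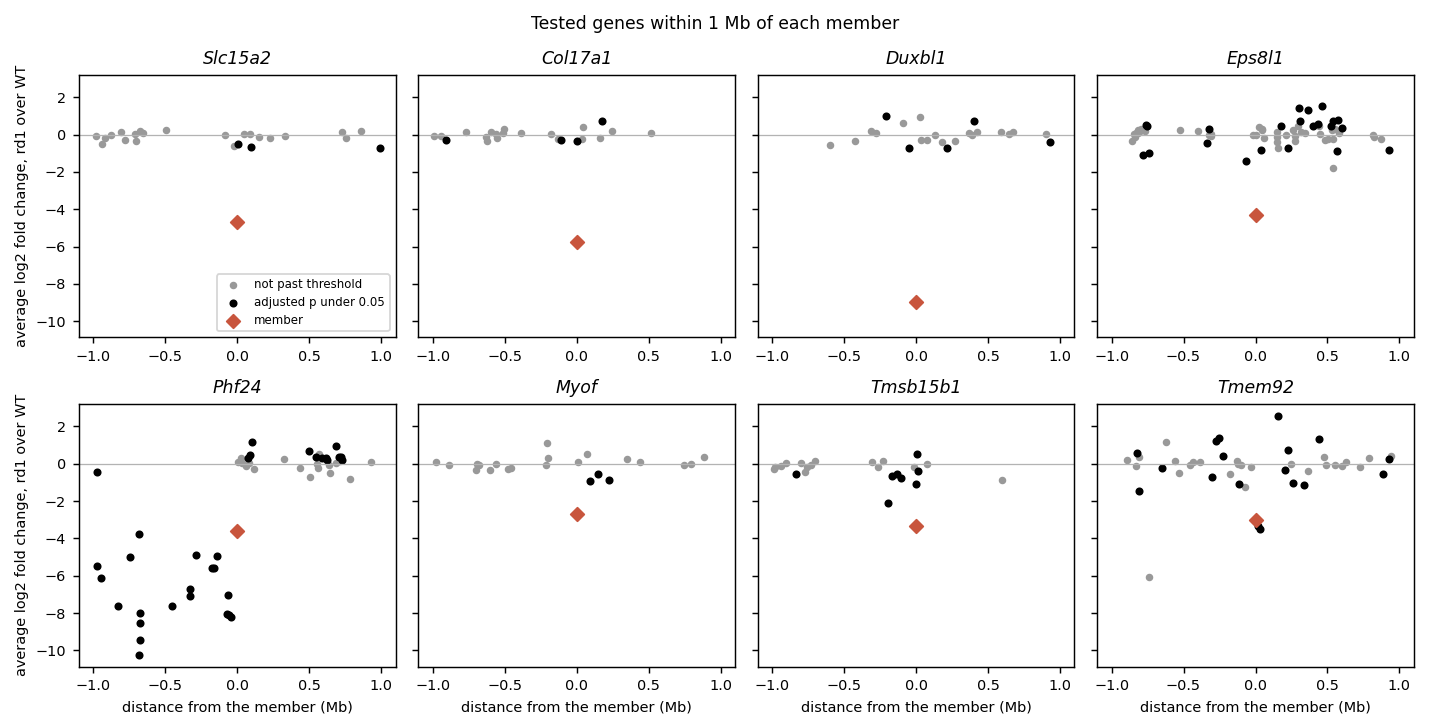
Average log2 fold change of rd1 over WT for each tested gene within 1 Mb of a member, against its distance from the member in Mb (negative toward lower coordinates). Black points passed an adjusted p of 0.05, grey points did not, and the diamond is the member. The Phf24 panel holds 20 genes at -2 or lower, all to its left.

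Genes that work with the members were taken from 7 lists of relatives and partners. Of 74 listed genes, 59 were tested and 12 passed, 5 higher and 7 lower. That is 20.3%, against 23.5% of all genes tested, so the relatives as a group did not stand out. Their median log2 fold change was 0. The other peptide transporters of the Slc15 family had values of -0.25 ± 0.29 (Slc15a1), 0.25 ± 0.37 (Slc15a3), 0.15 ± 0.11 (Slc15a4) and -0.21 ± 0.47 (Slc15a5), none past the threshold. Only Slc9a3r1, a scaffold protein gene, passed in that list, at 0.70 ± 0.16.

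Eps8 itself was at 0.11 ± 0.15, while among its partners Baiap2 was higher (0.73 ± 0.13) and Abi2 lower (-0.24 ± 0.07). Of 9 GABA-B receptor and inhibitory G protein genes 1 passed, Kctd16 (-0.90 ± 0.29), a receptor auxiliary subunit, and the receptor subunits Gabbr1 and Gabbr2 had values of 0.00 ± 0.09 and -0.04 ± 0.17. Among 7 actin-monomer genes the thymosin Tmsb4x was lower (-0.28 ± 0.09), as was Tmsb15l, and the profilin Pfn1 was higher (0.67 ± 0.09). In the ferlin and repair list Anxa5 (0.72 ± 0.21) and Ehd1 (0.49 ± 0.11) were higher and Anxa1 (-3.22 ± 0.63, means of 1.32 CPM in WT and 0.507 CPM in rd1) was lower, and the ferlin Dysf had a value of -0.05 ± 0.45. Of 11 hemidesmosome genes, the laminin chain gene Lama3 was lower (-1.68 ± 0.39). Of 3 double homeobox genes and targets tested, Usp17la passed (-0.73 ± 0.26), at under 2 CPM on average.

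Some markers of other cell types differed between the genotypes as well, and their counts stand against 12.9% of all genes tested that were higher and 10.6% that were lower. Few passed in several lists. Bipolar (1 of 8), ganglion (1 of 7) and astrocyte markers (1 of 4) each had 1 gene lower. Microglia markers had 1 of 8 higher, and cone markers 1 of 7 higher and 1 lower. Surface epithelium markers, of interest for Col17a1, summed to 7.85 to 24.9 CPM in WT and 7.97 to 41.2 CPM in rd1, with 1 of 6 tested higher (Epcam), none lower, and Krt5 and Krt14 at or near 0. Vessel markers summed to 52.2 to 459 CPM in WT and 103 to 408 CPM in rd1, with 4 of 8 lower, and pigment epithelium markers to 49.6 to 266 and 39.5 to 238 CPM, with 3 of 6 lower. Müller glia and progenitor markers were higher for 5 of 9, with sums of 241 to 1283 CPM in WT and 389 to 1299 CPM in rd1. Amacrine and horizontal cell markers were lower for 3 of 10, with sums of 214 to 874 CPM in WT and 227 to 653 CPM in rd1. These sums, whose ranges pool all ages, overlapped between the genotypes, which does not show whether they differed at a given age. The part of these cell types in the members' levels was not tested.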

How the data were processed

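Per the labels' protocols, retinas were dissociated with papain, GFP-positive cells were sorted, and libraries from a stranded mRNA kit were read as 125-base pairs. Per the submitters' processing notes, the tools were kallisto 0.42.4 and edgeR 3.32.1, with the genome GRCm38.p5. The authors deposited expected counts, that is estimated counts per gene and per transcript. They also deposited gene CPM, which are those gene counts scaled to the library total. In every table, 1 column that matched no sample was not used.

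Tests here used the expected counts after rounding, in R 4.3.3 with edgeR 4.0.16: filterByExpr on the 10 groups (18608 genes kept), TMM scaling, 1 mean per group, 17 residual degrees of freedom, two-sided quasi-likelihood tests and Benjamini-Hochberg adjustment over all genes tested. "Average" gives the 5 ages equal weight. SE was taken back from the F statistic (the size of the log2 fold change over the root of F), so it is approximate, most of all near 0 counts. On data simulated from these libraries, the average contrast recovered 93% of 2-fold and 100% of 4-fold changes (18037 genes) with 3.5% false calls. The WT age test recovered 66% of 2-fold and 95% of 4-fold changes (18042 genes) with 4.17% false calls. In these simulations the changed genes were few and above a minimum mean count, and no other gene differed between groups. The rates thus do not cover genes near 0 counts.

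Members, lists and tests were chosen with earlier results of these data known. The named genes were all members, the nearest tested gene on each side, up to 4 passing genes within 1 Mb per member, up to 3 passing genes per list with near copies, and the 8 genes of most like pattern, predicted genes left out. Passing neighbours with the lowest p were not always those named, and none of the 22 around Eps8l1 is named. AA623943, Gm20878, Gm13307, Gm11518, Mycbpap, Col1a1, Fos, Fam205a1, Fam205a4, Ccl19, Ccl21a, Glra4, Pde6c, Krt5, Krt14, Krt15, Krt18 and relatives that did not pass were named after their values were seen. Shared 31-base words and coding sequences came from GENCODE M21 transcripts, promoters from RefSeq. Alternatives were other scaling (RLE), no filter or a stricter one, DESeq2 1.42.0, all 28 libraries apart, a replicate block, each library left out, and other windows around the members. Without molecular identifiers, reads are not independent molecules, so floors cover counting error only.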

Additional observations from a re-analysis of the deposited data

Results flagged for a closer look

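In groups of 4 libraries, 42 sets of values of the members and 6 copies or neighbours were searched for a single library far from the other 3 (Dixon's 95% criterion), and 6 stood out. Chance alone picks about 1 in 20. Col17a1 in P8 rd1 replicate 3 was at 0.569 CPM, below 1.89 to 2.08 CPM in the others. Duxbl1 in P8 rd1 replicate 2 was at 0.390 CPM while the others were listed at 0. Eps8l1 in P10 WT replicate 4 was at 36.0 CPM, above 22.3 to 23.9 CPM. Myof in P6 WT replicate 4 was at 45.6 CPM, above 24.3 to 27.6 CPM. Among the copies and neighbours, Tmsb15l in P10 WT replicate 5 was at 2.04 CPM, below 4.68 to 5.19 CPM, and Fam205c in P10 WT replicate 3 was at 8.01 CPM, above 4.54 to 4.86 CPM. The 6 values came from 6 different libraries.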

How the results depend on the processing

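The median of the members' log2 fold changes was -3.97 and stayed between -4.30 and -3.84 in all 33 alternatives, and no member changed direction. Of the 8 WT age courses 5 passed, and 3 to 5 did with each library left out, 3 without P10 WT replicate 2 or 5. The Slc15a2 course was lost in 14 of 33 alternatives: without P2 rd1 replicates 1 or 2, P2 WT 1 or 2, P6 WT 2, 3 or 4, P8 rd1 1 or 4, P10 rd1 1 or 2, and P10 WT 2, 4 or 5. The Col17a1 course was lost without P10 WT replicates 2, 3 or 5. Where a left-out library leaves 1 sample in a group, that sample is assumed to vary like the others. Of genes within 1 Mb 96 passed, and 84 to 106 with each library left out. The count was 59 of 146 within 0.5 Mb (40.4%), 221 of 775 within 5 Mb (28.5%), and, as alternatives added after seeing the data, 63 of 223 without the window of Phf24 (28.3%) and 28 of 275 at P8 alone (10.2%, against 3.70% of all genes). Without a filter it was 99 of 441 (22.4%, against 12.4% of all genes). Of the related genes 12 passed, 8 to 14 with each library left out and up to 16 otherwise. The upstream transcripts of Eps8l1 had a log2 ratio of rd1 to WT of -7.34 in CPM and of -2.37 as a share of the gene, which is another quantity by construction. Duxbl1 in rd1 sits at the limit of depth, and its fitted average moved from -8.94 to -9.84 without P4 rd1 replicate 2 and -9.68 without P8 rd1 replicate 2.

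Same-numbered replicates did not deviate together (correlations from -0.238 to 0.138 over 9 pairs), so the numbers were not taken to pair samples. With a replicate block the median of the members was -4.01, 4 of 8 WT age courses, 95 of 275 neighbours and 16 related genes passed, and Col17a1 lost its age call (adjusted p = 0.0746), which does not show a weaker effect.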
